A study of Schizosaccharomyces pombe with 12 samples.

Results

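The genes described here serve fission yeast to take up nitrogen or to control that uptake. They were chosen by name and are 10 of the 5136 rows in the deposited tables of ribosome footprints and total RNA. They comprise the amino acid and peptide transporters isp5 (SPAC1039.09.1), isp4 (SPBC29B5.02c.1), put4 (SPAC869.10c.1), cat1 (SPAC869.11.1) and ptr2 (SPBC13A2.04c.1) and the ammonium transporters amt1 (SPCPB1C11.01.1), amt2 (SPAC664.14.1) and amt3 (SPAC2E1P3.02c.1). The other members are isp7 (SPAC25B8.13c.1), which codes for an oxygenase-family protein, and gaf1 (SPCC1902.01.1), which codes for a GATA-type transcription factor. By the reference annotation isp5, isp7, amt2, amt3, put4 and cat1 are on chromosome I, isp4 and ptr2 on chromosome II, and amt1 and gaf1 on chromosome III. The delta4dus strain carries by its name a loss of the 4 dihydrouridine synthases dus1 to dus4, enzymes that reduce uridine to dihydrouridine in RNA. It was compared with the strain labelled wild-type. Both were Schizosaccharomyces pombe cells harvested in mid-log phase without cycloheximide, with 3 footprint and 3 total RNA libraries per strain, lettered A to C. The medium, its nitrogen source, the auxotrophies and the mating types are not given in the labels, nor is it said whether the letters are separate cultures, so p-values may measure technical spread only.

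Fission yeast prefers rich nitrogen sources, such as ammonium and glutamine, and in their presence the kinase complex TORC1 keeps the GATA factor Gaf1 in the cytoplasm. When TORC1 activity falls, Gaf1 enters the nucleus and acts on genes for nitrogen use and transport, and cells also begin autophagy and, with a partner, mating. Permeases are controlled a second time at the membrane, where arrestins and ubiquitin ligases send them to the vacuole. The isp genes carry their name from their induction during sexual differentiation, which nitrogen starvation starts.

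Footprint libraries held 1747608 to 2591755 counts in delta4dus and 601969 to 1725344 counts in wild-type cells, and total RNA libraries held 1886954 to 2199320 counts. Footprints of all 4 dus genes fell in delta4dus. In the 3 delta4dus libraries together dus1 had 0 counts and dus3 had 2, but dus2 kept 14 and dus4 kept 35 counts (6, 7 and 22 in libraries A, B and C). Fitted levels were 11.6% of wild-type for dus2 and 39.6% for dus4, which had 5.54 ± 3.12 CPM in delta4dus and 15.5 ± 3.33 CPM in wild-type cells (SD, n = 3), so a complete loss is not seen in these rows of dus2 and dus4. After thinning 2 of the 4 fell. With a mean of 50 counts required per gene 0 did, since none of the 4 then had enough counts to be tested. That filter also leaves out named genes of the lists below, so counts under it cover fewer genes. Levels are CPM, the standard depth-scaled count, on library sizes after TMM scaling. The TMM factors ran from 0.917 to 0.942 in delta4dus and from 1.06 to 1.10 in wild-type footprint libraries. Log2 fold changes are delta4dus over wild-type, and a gene rose or fell where edgeR's quasi-likelihood test gave a Benjamini-Hochberg adjusted p under 0.05 over all genes tested. Both strains had footprints of the M mating-type gene mat1-Mc. Of 8 mating-type and pheromone genes listed, 6 had rows, 2 had enough counts to test and both of these, mfm2 (-2.15) and mat1-Mc (-0.87), fell. The part of mating genes or of the shallower wild-type footprint libraries in the results below was not tested, beyond the values with libraries left out or thinned.

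The transporters isp5, isp4 and amt1 had fewer ribosome footprints in delta4dus than in wild-type cells, by 13.5-fold, 3.59-fold and 2.09-fold. Cat1, put4, ptr2, amt2, isp7 and gaf1 did not pass the test, and amt3 had too few footprints to be tested. So 3 of the 9 members tested fell and 0 rose, where 28.6% of all 4505 genes tested were called in either direction, 14.1% falling and 14.5% rising. Isp5 reached the count minimum only through the wild-type libraries and so had to be lower, and 2 of the other 8 fell. At an unadjusted p under 0.05, 5 members were lower (amt2 and gaf1 too), as were 19.5% of all genes tested, and 0 were higher. With DESeq2 3 members fell and 0 rose, where 335 of all genes fell, against 635 by edgeR. Among genes within the members' range of coding length, 1194 to 2568 bp, 16.4% fell. The median log2 fold change of the 9 members was -0.25, beside -0.03 over all genes tested and -0.09 over genes of that length range. In 4 members the 3 delta4dus libraries were each lower than any wild-type library (isp5, isp4, amt1 and gaf1), which was so in 19.9% of genes tested. In 0 members was each higher, but the share of all genes was not counted in that direction, so nothing is read from it.

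**Figure D1:**
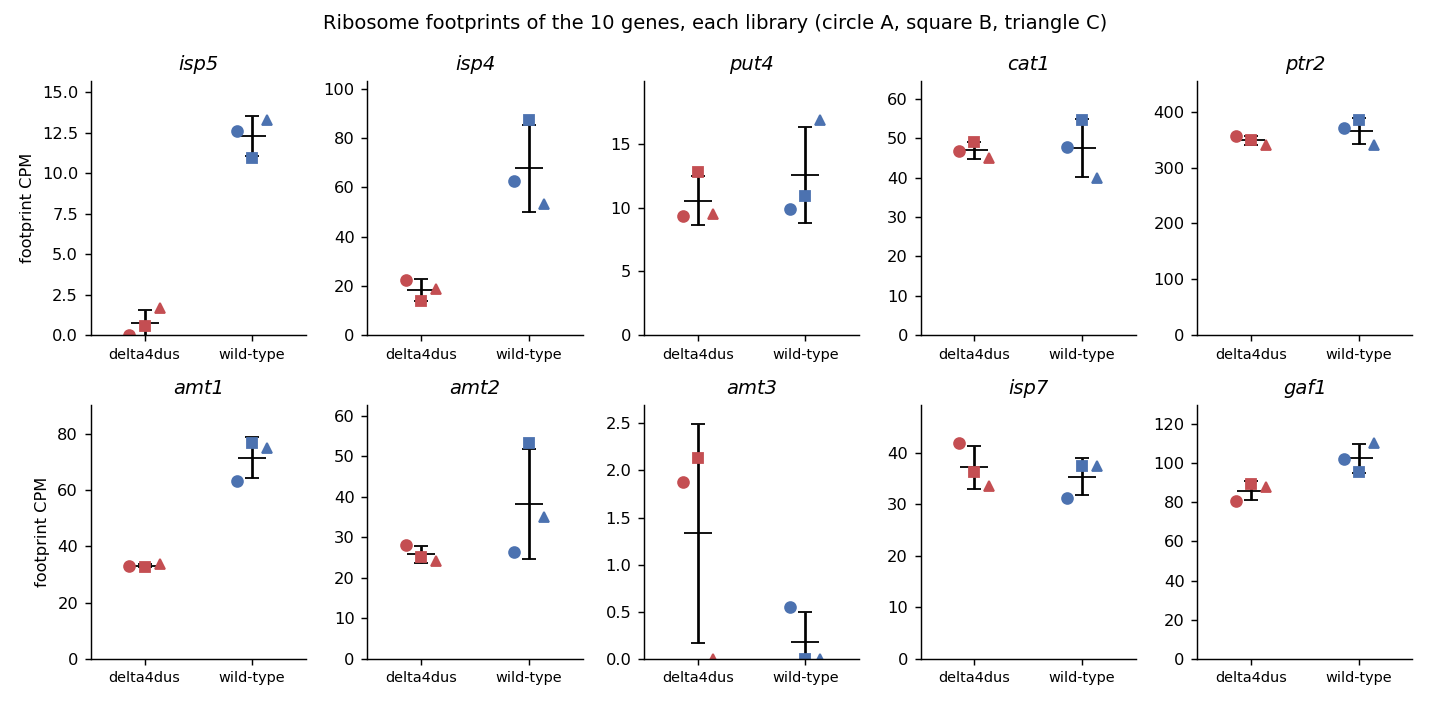
Ribosome footprints (CPM, linear axes from 0, scaled per gene) of the 10 genes in each delta4dus library (red, left) and each wild-type library (blue, right). Points are libraries, and bars are the mean and SD of 3 libraries. For isp5, isp4 and amt1 the delta4dus points lie far below the wild-type points, with 0.732 against 12.3 CPM on average for isp5.

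Isp5, an amino acid permease, was almost without footprints in delta4dus. It had 0, 0.533 and 1.66 CPM in delta4dus libraries A, B and C, against 12.6, 10.9 and 13.3 CPM in wild-type libraries A, B and C. These values rest on 0, 1 and 4 counts in delta4dus and on 23, 7 and 11 counts in wild-type cells. Every delta4dus library was lower than every wild-type library, and the wild-type libraries were close to each other. The log2 fold change was -3.75 (SE 0.53, 95% interval -4.80 to -2.71, adjusted p = 9.92e-09). The fitted fold of a gene with so few counts depends on the fit. From the summed counts alone, delta4dus held 6.82% of the wild-type level, with an exact 95% interval of 2.10% to 17.2% that covers counting error only. Isp5 had enough counts to be tested only through the wild-type libraries.

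Isp4 is a transporter of the oligopeptide family. It had 22.5, 13.9 and 18.7 CPM in delta4dus libraries A, B and C, against 62.6, 87.5 and 53.2 CPM in the wild-type ones. The lowest wild-type library was above the highest delta4dus library, and the spread was wider in wild-type cells, whose library B was the highest. The log2 fold change was -1.84 (SE 0.19, 95% interval -2.22 to -1.47, adjusted p = 4.15e-13), or 27.9% of the wild-type level.

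Put4, cat1 and ptr2, which are annotated as a proline, an arginine and lysine, and a peptide transporter, did not pass. Put4 had 9.37, 12.8 and 9.56 CPM in delta4dus, against 9.88, 10.9 and 16.9 CPM in wild-type cells. Cat1 had 46.8, 49.0 and 44.9 CPM in delta4dus, against 47.7, 54.7 and 39.9 CPM in wild-type cells. Ptr2 had 356.5, 348.9 and 340.7 CPM in delta4dus, against 371.5, 385.7 and 340.7 CPM in wild-type cells. The libraries of both genotypes overlapped in all 3 genes. Log2 fold changes were -0.18 for put4 (95% interval -0.82 to 0.46, adjusted p = 0.731), -0.01 for cat1 (-0.33 to 0.31, adjusted p = 0.976) and -0.07 for ptr2 (-0.20 to 0.06, adjusted p = 0.453). A fall of the size seen in isp4 lies outside all 3 intervals. The put4 values rest on 62 counts in delta4dus and 39 in wild-type cells, and its interval is the widest.

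The ammonium transporters differed among themselves. Amt1 had 33.1, 32.5 and 33.7 CPM in delta4dus, against 63.1, 76.5 and 74.9 CPM in wild-type cells. The delta4dus libraries were nearly equal, and all were lower than the wild-type libraries. Its log2 fold change was -1.06 (SE 0.16, 95% interval -1.38 to -0.75, adjusted p = 4.85e-08), or 47.8% of the wild-type level.

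Amt2 had 28.1, 25.04 and 24.1 CPM in delta4dus, against 26.3, 53.1 and 35.0 CPM in wild-type cells. Only wild-type library A lay within reach of the delta4dus libraries, between A and B of that strain. The log2 fold change of -0.43 (95% interval -0.85 to -0.01) did not pass (adjusted p = 0.119). Without wild-type library A the value was -0.75 and passed (adjusted p = 0.0219), and it also passed with the libraries thinned to equal depth (-0.92, adjusted p = 0.0182). Amt3 had 3, 4 and 0 counts in delta4dus libraries A, B and C, against 1, 0 and 0 counts in the wild-type ones. These are at or near the limit of detection of 3 counts per library in both strains, so no fold is given for amt3.

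Neither regulator among the members passed the test. Isp7, a member of the oxygenase superfamily that uses 2-oxoglutarate and iron and is known to act with TORC1 on amino acid uptake, had 41.8, 36.2 and 33.7 CPM in delta4dus, against 31.3, 37.5 and 37.5 CPM in wild-type cells. The libraries overlapped, and the log2 fold change was 0.10 (95% interval -0.26 to 0.47, adjusted p = 0.728). Gaf1 had 80.5, 89.5 and 87.7 CPM in delta4dus, against 102, 95.3 and 110 CPM in wild-type cells. All delta4dus libraries were lower, by little, and the log2 fold change of -0.25 (95% interval -0.48 to -0.03) did not pass (adjusted p = 0.0887). Gaf1 passed with thinned libraries (-0.44, adjusted p = 0.0432) and with a mean of 50 counts required per gene (-0.30, adjusted p = 0.028).

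Footprint levels of different genes were compared per kilobase of coding length. In delta4dus the order from high to low was ptr2 with 187.8 CPM per kb, gaf1 with 33.5, isp7 with 31.2, cat1 with 26.6, amt1 with 22.1, amt2 with 16.7, isp4 with 7.78, put4 with 6.37, amt3 with 0.859 and isp5 with 0.420. In wild-type cells it was ptr2 with 197.1 CPM per kb, amt1 with 47.9, gaf1 with 39.9, isp7 with 29.7, isp4 with 28.7, cat1 with 26.9, amt2 with 24.8, put4 with 7.58, isp5 with 7.05 and amt3 with 0.118. Ptr2 was far above all other members in both strains. In delta4dus the ranges of neighbours overlapped for gaf1 and isp7, isp4 and put4, and amt3 and isp5. In wild-type cells they overlapped for amt1 and gaf1, for isp7, isp4, cat1 and amt2 in turn, and for put4 and isp5. Among the 5107 rows with a coding length, wild-type ptr2 stood at the 86.8th percentile of footprint density, amt1 at the 62.6th, isp4 at the 50.3th, isp5 at the 17.8th and amt3 at the 2.17th.

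Total RNA was sequenced alongside to give transcript abundance, but its rows could not be read as mRNA of the named genes. Across 5107 rows, wild-type footprint density and total RNA density per kb had a Spearman rho of -0.09, and across the 10 members, which share the same libraries, it was -0.71. The 131 rows annotated as ribosomal proteins, among the most translated genes of a growing cell, had a median of 1742 CPM in wild-type footprints and of 2.53 CPM in the wild-type total RNA table. The labels name a stranded library protocol, and the strand setting used in counting is not given in the sources used here. On the strand opposite to the members the reference places long noncoding RNAs. They cover 97.0% of the exons of amt3, 96.1% of isp4, 82.1% each of put4 and amt1, 80.8% of cat1 and 70.5% of amt2 by the single largest overlap, while the largest overlap was 11.02% for isp7, 11.2% for ptr2 and 7.31% for gaf1, and none is annotated opposite isp5. Which strand the reads of these rows came from is not given in the counts, so a change in them is given as a change of the row.

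**Figure D2:**
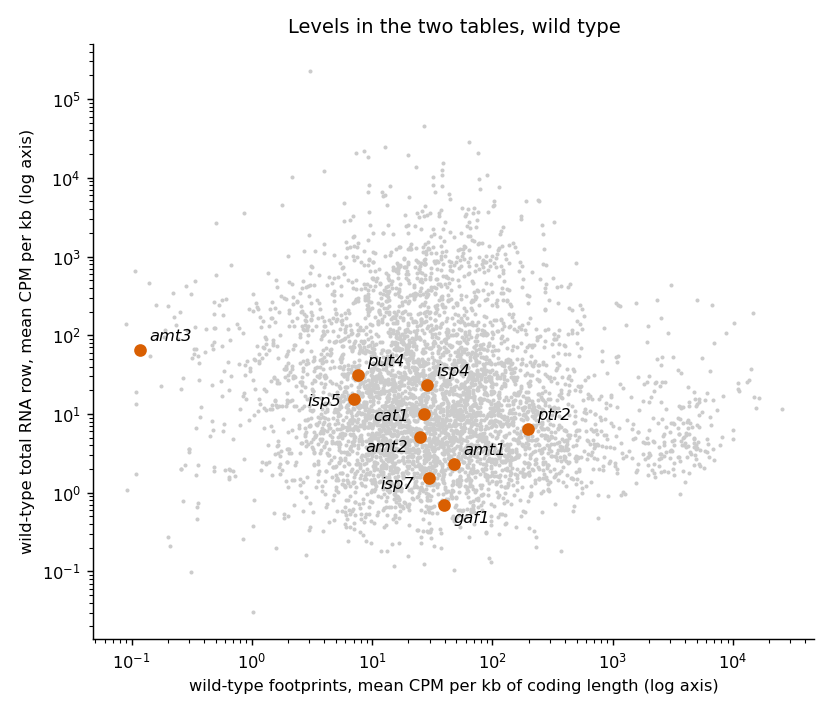
Mean wild-type level per kb of coding length in the footprint table (x, log axis, CPM per kb) and in the total RNA table (y, log axis) for the 4988 rows above 0 in both. Orange points are the 10 members and grey points all other rows. Amt3, with the fewest footprints of the members (0.118), has the highest total RNA row of them (65.0), while gaf1 has the lowest (0.704).

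The order of the total RNA rows differed from that of the footprints. In wild-type cells the amt3 row was the highest of the members per kb, with 65.0 ± 3.99 CPM per kb, followed by put4 with 31.1 ± 5.05, isp4 with 23.5 ± 2.08 and isp5 with 15.6 ± 1.04 (SD, n = 3). The rows of amt1, isp7 and gaf1 had 2.30, 1.53 and 0.704 CPM per kb. In delta4dus amt3 was again the highest (57.4 ± 4.34 CPM per kb) and gaf1 the lowest (0.750 ± 0.396 CPM per kb).

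Of the 7 members whose total RNA rows could be tested, 1 rose, 0 fell and 6 did not pass, where 22.9% of 3791 rows were called in either direction and 12.5% rose. The rows of isp7, amt1 and gaf1 had too few counts. The median over the 7 was -0.12, beside 0.08 over all rows tested. The isp5 row had 31.0, 36.4 and 27.8 CPM in delta4dus, against 29.2, 26.6 and 25.7 CPM in wild-type cells (0.22, 95% interval -0.14 to 0.58, adjusted p = 0.381). Delta4dus library C lay within the range of the wild-type libraries, so the strains overlapped in this row, while they did not in the footprints of isp5. The isp4 row had 45.0, 30.1 and 53.5 CPM in delta4dus, against 53.5, 61.1 and 51.9 CPM in wild-type cells (-0.37, 95% interval -0.75 to 0.00, adjusted p = 0.149). The strains overlapped here too, with delta4dus library B the lowest, and without delta4dus library C the value passed (-0.56, adjusted p = 0.0375).

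The amt2 row had 15.7, 18.7 and 10.8 CPM in delta4dus, against 7.03, 10.5 and 5.88 CPM in wild-type cells. All delta4dus libraries were higher, though delta4dus library C and wild-type library B were close. The row rose by 0.95 (SE 0.29, 95% interval 0.34 to 1.57, adjusted p = 0.0268). The call was lost with DESeq2 (adjusted p = 0.0953) and without any one of wild-type library A, wild-type library C, delta4dus library A or delta4dus library B (adjusted p 0.0917 to 0.115). The rows of amt3 (-0.18), put4 (-0.12), cat1 (0.14) and ptr2 (-0.45) did not pass, with adjusted p of 0.247, 0.590, 0.665 and 0.241.

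**Figure D3:**
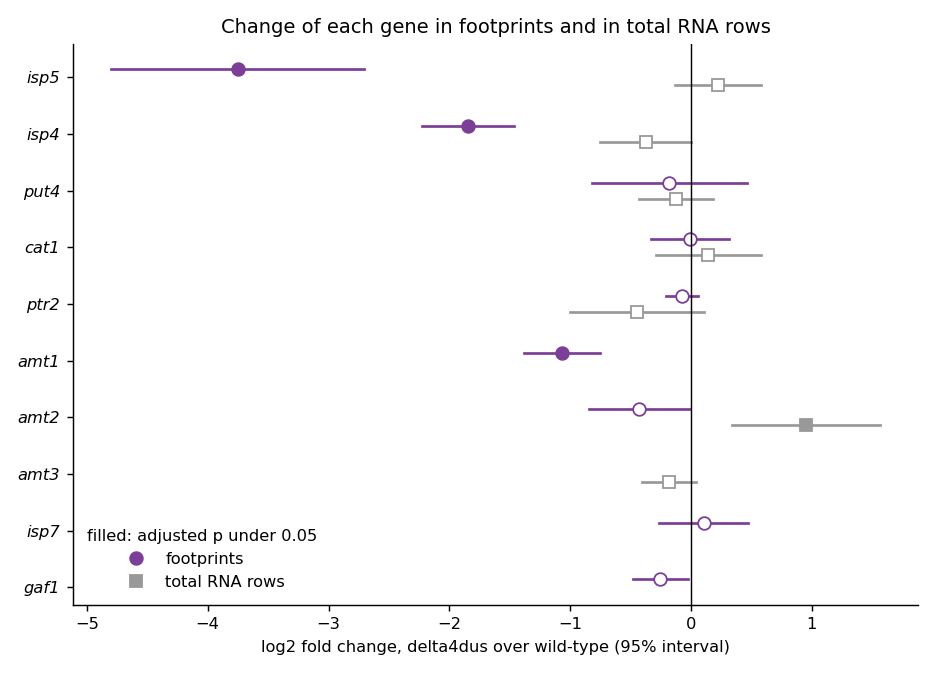
Log2 fold change, delta4dus over wild-type, with 95% intervals for each member in footprints (purple circles) and in total RNA rows (grey squares). Filled symbols have an adjusted p under 0.05, and members without a symbol had too few counts. Isp5 (-3.75), isp4 (-1.84) and amt1 (-1.06) stand left of 0 in footprints, while the amt2 row (0.95) stands right of 0 in total RNA.

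The difference between the change in footprints and the change in the total RNA row was tested in one model over the 12 libraries. It passed below 0 for 3 of the 6 members that could be tested and above 0 for none. Of all 3330 genes tested, 13.9% passed below 0 and 211 genes above 0. Isp5 reached the count minimum in footprints only through the wild-type libraries, so the filter tied its direction in this model too. It was -3.98 for isp5 (SE 0.54, adjusted p = 1.32e-06), -1.44 for isp4 (SE 0.28, adjusted p = 0.000266) and -1.36 for amt2 (SE 0.37, adjusted p = 0.00819). For isp5 and isp4 most of the difference came from the footprints, while for amt2 the row rose and the footprints did not pass. Put4 (-0.02), cat1 (-0.12) and ptr2 (0.40) did not pass. The amt2 call was lost without wild-type library C or delta4dus library B (adjusted p = 0.0543 and 0.0545). Since the rows cannot be read as the members' own mRNA, these differences are not given as translational efficiencies. In the authors' deposited table the log2 fold changes in footprints were -3.81 for isp5, -1.78 for isp4, -0.998 for amt1 and -0.41 for amt2. The same authors' deposited table gives changes in translational efficiency of -3.54 for isp5, -1.15 for isp4 and -1.10 for amt2. It marks isp5, isp4 and amt3, the last with 7 footprint counts in delta4dus and 1 in wild-type cells, as translational and amt2 as none. Its log2 efficiency in the control was -9.81 for amt3 and 4.58 for gaf1, the highest and the lowest total RNA row of the members. These values come from the same libraries, so they are no independent check and the limit on the rows holds for them too.

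The members isp5, cat1 and put4 lie in 1 stretch of chromosome I, with 8 protein-coding genes between isp5 and cat1 and none between cat1 and put4. The stretch was looked at after the values of its genes were seen, with 4 further genes on each side, 19 in all. Footprints of 7 of the 11 genes that could be tested fell, beside 14.1% of all genes tested, and 0 rose. Nothing is read from this count, since the stretch was picked with its values known, and only 2 genes fell after thinning and 1 with a mean of 50 counts required, where fewer genes could be tested. The fallers were klf1 (-1.43), SPAC1039.06 (-1.51), SPAC1039.07c (-1.99), isp5 (-3.75), gto1 (-1.14), SPAC922.03 (-1.25) and SPAC922.04 (-0.65), by edgeR with adjusted p between 3.91e-18 and 0.027. All of them lie at the isp5 end of the stretch. SPAC922.06 (-0.67), atd2 (0.46), cat1 and put4, the tested genes at the other end, did not pass, and the last 4 genes had at most 4 counts in either strain. Isp5 changed more than any other tested gene of the stretch, and most of the other fallers rest on few counts, 14 to 55 in delta4dus against 30 to 87 in wild-type cells, apart from SPAC922.04 with 4185 and 3690. Klf1, SPAC1039.07c, gto1 and SPAC922.03, with 22, 14, 24 and 33 counts in delta4dus, reached the count minimum only with wild-type libraries, like isp5. The filter thus tied the direction of these fallers. SPAC922.06, which did not pass, also needed wild-type libraries (28 counts in delta4dus). The calls of klf1 and gto1 were lost with DESeq2 (adjusted p = 0.0792 and 0.190) and without wild-type library A (0.123 and 0.162). The gto1 call was also lost without wild-type library C (0.116), without delta4dus library B (0.0766) or C (0.105), and with the letters as a block (0.0545).

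**Figure D4:**
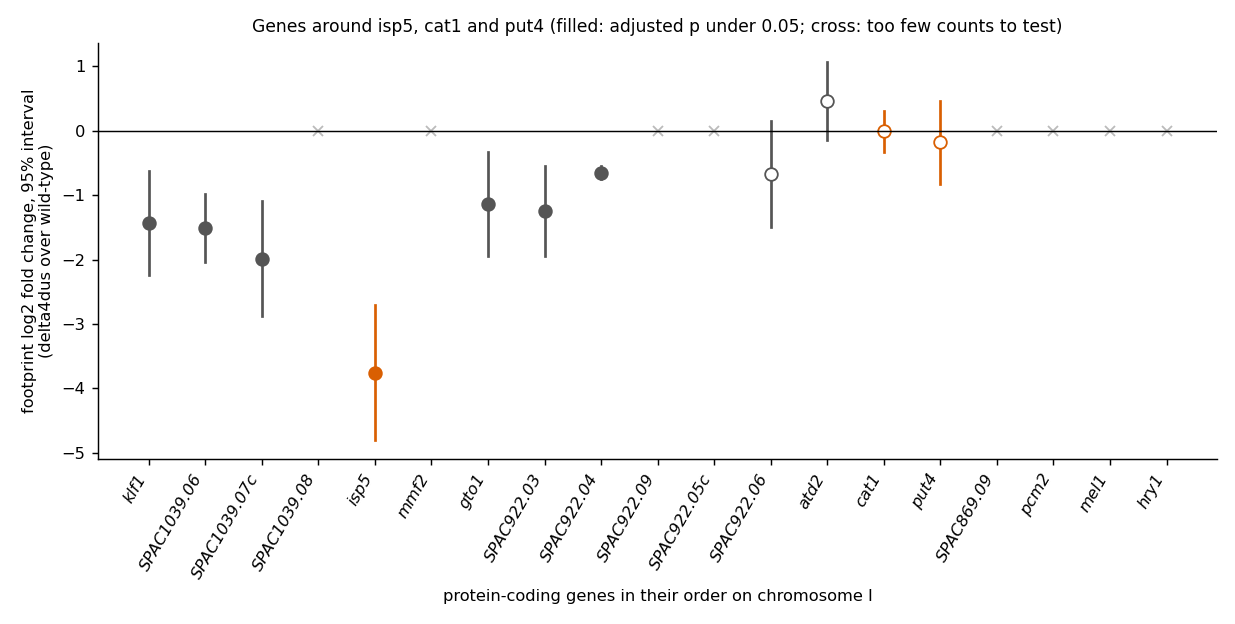
Footprint log2 fold change with 95% interval (y) for the 19 protein-coding genes around isp5, cat1 and put4 in their order on chromosome I (x, evenly spaced). Orange marks members, filled points have an adjusted p under 0.05, and crosses at 0 mark genes with too few counts. The 7 filled points, lowest at isp5 (-3.75), lie in the left part, and cat1 (-0.01) and put4 (-0.18) lie near 0.

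The genes on both sides of isp4 rose. On one side, atf1, which codes for a stress-response transcription factor and is on the opposite strand, had 103, 117.7 and 122.1 CPM in delta4dus, against 58.2, 51.5 and 58.0 CPM in wild-type cells, and rose by 1.02 (adjusted p = 1.72e-10). The ribosomal protein gene rpl26 on the other side of isp4 rose by 0.52 (adjusted p = 6.57e-15). Both genes beside amt1 had too few footprints to test. Beside members that did not pass, ptk1 next to ptr2 fell (-0.53, adjusted p = 0.00194), as did mug72 next to gaf1 (-0.55, adjusted p = 0.00523). SPAC25B8.12c next to isp7 rose (0.40, adjusted p = 5.93e-10). The other genes beside members that could be tested, mal2, SPAC664.13, mdv1, SPAC2E1P3.01, Tf2-3, atd2, bbl1 and dad5, did not pass. Of all genes tested, 28.6% were called in either direction. The ptk1 call was lost without wild-type library C (adjusted p = 0.0729) and after thinning (0.289), and the mug72 call with DESeq2 (0.0769) and without wild-type library A (0.216).

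Among other transporters of amino acids and peptides, 5 genes fell and 1 rose. Of 21 such genes with rows, 19 were tested and 13 did not pass (median -0.21). Per1, a plasma membrane amino acid permease, fell to 32.4 ± 5.75 CPM in delta4dus, against 68.5 ± 5.60 CPM in wild-type cells (-1.08, adjusted p = 7.03e-08). SPAC1039.01, annotated as an amino acid transporter and carrying the same SPAC1039 prefix as isp5, had 7.12 ± 2.68 CPM in delta4dus and 24.7 ± 2.06 CPM in wild-type cells (-1.78, adjusted p = 8.03e-07). SPBC1652.02 fell by 0.53 on the log2 scale, a call lost without wild-type library A (adjusted p = 0.130). Aat1, a further amino acid permease, rose to 155.4 ± 15.1 CPM in delta4dus, against 97.0 ± 11.2 CPM in wild-type cells (0.64, adjusted p = 6.39e-07). A few genes of this list are not amino acid transporters, among them cut1, the separase, which was matched through an older name, and the thiamine transporter thi9. Neither of these passed (-0.59 and 0.59). Another is uga1, a 4-aminobutyrate aminotransferase, which fell (-0.78, adjusted p = 0.0339) and is counted both here and among the nitrogen enzymes. The count of fallers was 3 with DESeq2, with the letters as a block and without wild-type library A or B, 2 where a mean of 50 counts was asked of each gene, and 9 with total counts in place of TMM. Of all genes, 1397 fell with total counts and 335 with DESeq2, against 635 as reported.

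Among enzymes of nitrogen use, 7 genes fell, uga1 among them, and 2 rose. Of 24 genes for nitrogen assimilation, catabolism and uptake with rows, 22 were tested and 13 did not pass (median -0.21). Cao2, annotated as a copper amine oxidase, had 4.26 ± 1.72 CPM in delta4dus and 27.3 ± 3.68 CPM in wild-type cells (-2.77, adjusted p = 1.32e-11). Uro1, the uricase of purine breakdown, had 26.0 ± 2.02 CPM in delta4dus and 64.1 ± 4.00 CPM in wild-type cells (-1.33, adjusted p = 4.23e-10). Put1, the proline dehydrogenase that acts on what Put4 imports, fell by 0.79 (adjusted p = 5.16e-10) while put4 itself did not pass. In the other direction, put2 of this list rose by 0.25 (adjusted p = 1.61e-05), and it is named with its value known. Aru1, an arginase, splits arginine, a substrate of Cat1. It rose to 1330 ± 60.2 CPM in delta4dus, against 726.7 ± 40.3 CPM in wild-type cells (0.86, adjusted p = 9.26e-24). Car1, named by its symbol both in this list and in the list of other transporters, and so counted in both, did not pass (0.02, adjusted p = 0.928). Glutamine synthetase gln1, which joins imported ammonium to glutamate, fell by 0.27 (adjusted p = 3.07e-05), and it was picked after its value was seen. With total counts 12 genes of this list fell and 1 rose, where 1397 of all genes fell and 334 rose.

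A list of 51 genes was made for TOR signalling, the GATOR complexes, and arrestins or ubiquitin ligases that act on permeases. It also holds genes outside these classes, among them hri1, hri2, gcn2, fil1, fep1, ams2, tup11, tup12 and fkh2. Of the 51 genes, 51 were tested, 5 rose, 10 fell and 36 did not pass (median -0.19). The largest of the 4 changes with the smallest p was that of hri2, a kinase of translation initiation factor eIF2, with 19.1 ± 3.93 CPM in delta4dus and 6.19 ± 2.25 CPM in wild-type cells (1.60, adjusted p = 6.49e-05). The forkhead factor fkh2 (0.55) and the ribosomal protein gene rps601 (0.35), which has a near-identical copy, rose, and fil1, a GATA-type factor of amino acid starvation, fell (-0.48). Chosen after their values were seen, the kinase gene tor1 of TORC2 fell (-0.72, adjusted p = 0.00543), and tor2 of TORC1 did not pass (-0.26, adjusted p = 0.166). The ubiquitin ligase gene pub1 (-0.14) and the arrestin gene any1 (-0.13), which act on Cat1 at the membrane, did not pass either. The count of fallers was 4 with DESeq2 or after thinning and 6 without delta4dus library C, and the risers were 3 without that library or with a mean of 50 counts required and 2 after thinning. With total counts 23 fell and 3 rose, where 1397 of all genes fell and 334 rose.

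Of 39 genes of nitrogen starvation and autophagy, 25 were tested, 3 rose, 5 fell and 17 did not pass (median -0.31). Pas1, a cyclin, had 33.1 ± 2.74 CPM in delta4dus and 64.4 ± 7.44 CPM in wild-type cells (-0.998, adjusted p = 3.14e-07). The homeobox factor phx1 (-1.01), the autophagy gene atg2 (-1.34) and isp6 (-0.58), a vacuolar protease induced with the other isp genes, also fell. The isp6 call was lost without wild-type library A (adjusted p = 0.230). The 3 risers were reduced to 1 without wild-type library A or C or delta4dus library C, and to 0 with DESeq2, after thinning or with a mean of 50 counts required, and the fallers were then 4, 4 and 2. With total counts 11 fell and 1 rose, where 1397 of all genes fell and 334 rose. In each of these lists the median was below that of all genes tested (-0.03). The share that fell was 26.3% among the other transporters, 31.8% among the nitrogen enzymes, 19.6% among the TOR and ubiquitin genes and 20% among the starvation genes, beside 14.1% of all genes tested. The share that rose was 5.26%, 9.09%, 9.80% and 12% in the same order of lists, beside 14.5% of all genes tested. Cao2, SPAC1039.01 and atg2 reached the count minimum only through the wild-type libraries, like isp5, and hri2 only through the delta4dus libraries. The filter thus tied the direction of these genes, which are counted in the shares given here.

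**Figure D5:**
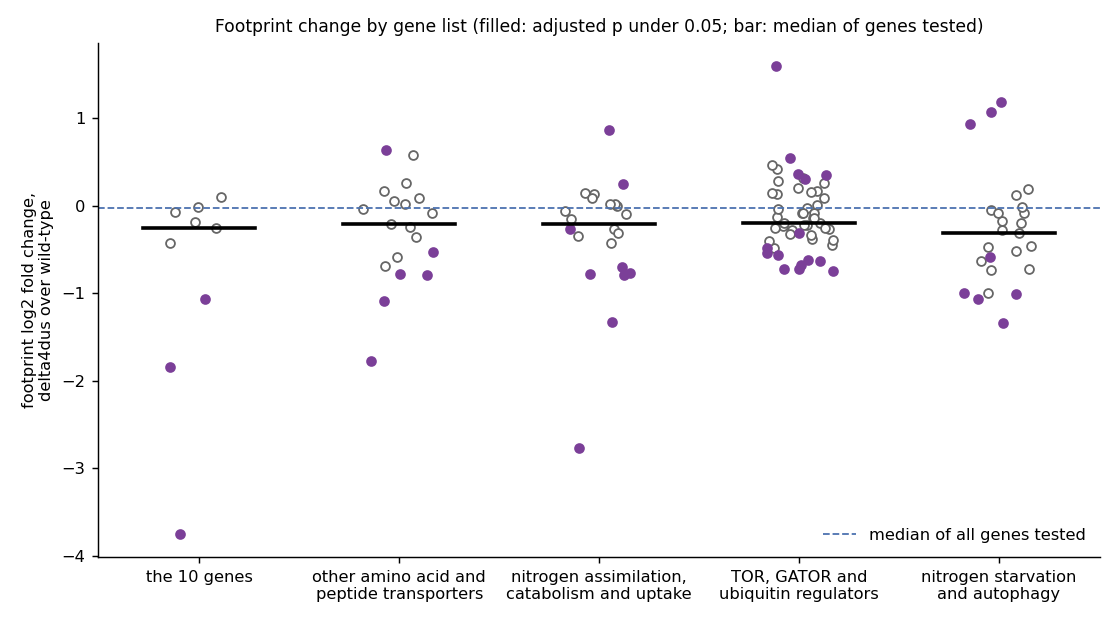
Footprint log2 fold change, delta4dus over wild-type (y), of each gene tested in the members and in 4 gene lists (x). Filled points have an adjusted p under 0.05, black bars are list medians, and the dashed line is the median of all genes tested (-0.03). The bars lie between -0.31 and -0.19, and isp5 (-3.75) is the lowest point of all.

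The genes whose footprints across the 6 libraries were most like the mean profile of the 9 tested members were named by Pearson r, as a description over libraries of both genotypes. They were ofd1 (0.997), SPBC409.08 (0.995), ubp5 (0.995), cig1 (0.994), SPAC513.07 (0.993) and bgs4 (0.993), among 3814 genes compared, of which 147 had r over 0.95. The profile was low in each delta4dus library (-0.388 to -0.337) and high in each wild-type library (0.2498 to 0.479), so that the direction of these genes was fixed by the choice. Their log2 fold changes, in the same order, were -0.38, -1.53, -0.73, -1.17, -0.40 and -0.42. Ofd1 codes, like isp7, for a protein of the 2-oxoglutarate and iron dioxygenases, cig1 for a cyclin, ubp5 for a ubiquitin hydrolase, bgs4 for a glucan synthase and SPBC409.08 for a transporter annotated in the spermine family. SPBC409.08 had 56.2, 63.4 and 61.1 CPM in delta4dus, against 159.1, 193.7 and 186.1 CPM in wild-type cells.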

How the data were processed

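The authors deposited one table of raw counts per transcript for footprints and one for total RNA. The submitters' processing notes name the ASM294v2 build and the tools featureCounts, HISAT2, Bowtie2 2.4 and Trimmomatic 0.36. The footprints were gel-selected fragments of 28 to 32 nt, per the labels' protocols. The authors' deposited comparison table holds log2 fold changes and p-values, per the file headers, with no test or scaling stated.

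Counts were used as deposited. Each assay was compared, 3 libraries against 3, with edgeR 4.0.16 in R 4.3.3 (quasi-likelihood, TMM, default filterByExpr, two-sided, Benjamini-Hochberg over all genes tested), and the difference between assays was the genotype by assay interaction over 12 libraries. The fits were tested on simulated data. DESeq2 1.42.0, other scalings, filters, thinning to 601969 counts, libraries left out and the letters as a block were alternatives. Log2 CPM for likeness used a prior count of 2 and genes with a mean of at least 20 counts. Summed counts were given exact (Clopper-Pearson) intervals. Tables and plots came from Python 3.11.15 with pandas 2.3.3, scipy 1.17.1 and matplotlib 3.10.9.

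The RefSeq annotation of the ASM294v3 build served for names, strands, coding lengths and gene order only, and 5107 of 5136 rows matched it. No sequence was read from it, so planned descriptions of promoter letters and protein identity were not run. The members and lists were chosen with earlier results of these data known. Named genes were the 10 members, up to 4 called genes per list with the smallest p, the 6 most like genes, and genes beside the members. The lists were other amino acid and peptide transporters, nitrogen assimilation and catabolism, TOR, GATOR and ubiquitin regulators, nitrogen starvation and autophagy, dus genes, and mating-type genes. No pair of libraries agreed within sampling noise (chi-square per degree of freedom 1.46 to 1.91 in footprints and 1.86 to 4.59 in total RNA, over genes with at least 20 counts).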

Additional observations from a re-analysis of the deposited data

Results flagged for a closer look

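For isp5, isp4 and amt2 the change between genotypes differed between the footprint and the total RNA table by a test of the difference itself. The change in footprints minus the change in the total RNA row was -3.98 for isp5 (adjusted p = 1.32e-06), -1.44 for isp4 (adjusted p = 0.000266) and -1.36 for amt2 (adjusted p = 0.00819, edgeR interaction). Isp5 could be tested only through its wild-type footprint counts, so the filter tied the direction of its value. The amt2 call was lost without wild-type library C or delta4dus library B (adjusted p = 0.0543 and 0.0545, edgeR interaction). What the total RNA rows measure was not settled here, and the part of the opposite strand in these differences was not tested.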

How the results depend on the processing

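Isp4 and amt1 fell in footprints under all 13 alternatives and isp5 under all 11 that could test it, with log2 fold changes of -2.05 to -1.69, -1.27 to -0.94 and -5.04 to -3.33. Isp5 could not be tested with a mean of 50 counts or after thinning. Over the members' 260 recomputed values, 226 kept direction and side of the threshold, 7 calls were lost, 8 gained and 19 values changed sign, all 19 of them below the threshold as reported. In footprints they were isp7 (-0.0997 with total counts, -0.0734 thinned, and -0.0181 to 0.184 with 1 library left out), put4 (-0.427 to 0.05 with 1 left out) and cat1 (0.0042 with RLE size factors, 0.0052 with DESeq2, -0.0916 to 0.0563 with 1 left out). In total RNA rows they were amt3 (0.0105) and put4 (0.0681), both with total counts. In the difference between assays they were put4 (0.0526 with RLE, 0.0428 with DESeq2, 0.0292 with the replicate block, -0.369 to 0.226 with 1 left out) and cat1 (-0.265 to 0.0083 with 1 left out). Total counts, without TMM, moved the median of all genes to -0.23 in footprints, 0.27 in total RNA and -0.53 in the difference, and 6 members then fell in footprints. Relative to that median isp5, isp4 and amt1 were at -3.72, -1.82 and -1.04, as under TMM (-3.73, -1.82 and -1.04). Of all genes, 654 rose and 635 fell in footprints as reported, against 334 and 1397 with total counts, and 335 fell with DESeq2 and 337 after thinning. In total RNA rows 475 rose and 394 fell, against 825 and 81 with total counts, 297 and 197 with the replicate block, 229 rising with DESeq2, and 262 to 434 rising and 187 to 478 falling with 1 library left out. In the difference between assays 211 were higher and 463 lower, against 69 and 1231 with total counts, 89 and 137 with a mean of 50 counts, 283 lower with DESeq2, and 139 to 205 higher and 287 to 372 lower with 1 library left out. The members rising in total RNA numbered 0 with DESeq2 or a mean of 50 counts and 0 to 1 with a library left out, those falling 0 to 1, and those lower in the difference 1 with a mean of 50 counts. Letters paired no samples: same-letter libraries of the genotypes had correlations of 0.017 to 0.043 in footprints and -0.306 to 0.030 in total RNA, although each footprint library correlated best with its own letter. The paired fit changed no member's call. Causes were not tested. Depth limits isp5, amt3 and the stretch around isp5, which held 2 fallers after thinning and 1 with a mean of 50 counts, against 7 as reported. Of 505 values of 41 other named genes, 490 kept their side, 15 calls were lost and 0 changed sign.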
